A study of Rattus norvegicus with 18 samples.

Results

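The 10 immediate early genes Fos, Fosb, Jun, Junb, Egr1, Egr2, Atf3, Nr4a1, Dusp1 and Btg2 were chosen by name for description in medullary thyroid carcinomas of MENX rats. Measurements of 8 of the 10 were found by their gene symbol in the platform annotation, each with 1 probe set. They stood among 14506 genes with a named probe set and 11370 genes that passed a filter on low values, and all 8 passed it. Fosb and Btg2 had no probe set of that symbol and were not analysed here.

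Medullary thyroid carcinoma arises from the C cells of the thyroid, which make calcitonin. The 18 arrays held 6 tumours in each of 3 groups. These were tumours of homozygous Cdkn1b mutants at 9 months, of heterozygous Cdkn1b mutants at 18 months and of heterozygous Cdkn1b mutants at 9 months. Cdkn1b encodes the cyclin-dependent kinase inhibitor p27Kip1, and all 3 groups carried the mutant allele in a Sprague–Dawley white eye/Wistar–Kyoto background, so no group was free of it. The animals were untreated and kept under specific pathogen free conditions, and each array had an animal code of its own. The design set homozygous against heterozygous tumours at 9 months and heterozygous tumours at 18 months against those at 9 months. A further comparison, homozygous tumours at 9 months against heterozygous tumours at 18 months, differs in genotype and age at once.

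Immediate early genes are transcribed within minutes of a stimulus without new protein synthesis, and their messenger RNAs are short-lived. Growth factor receptors reach them through the Ras, Raf, Mek and Erk kinases, which act on ternary complex factors and serum response factor at CArG boxes, and cyclic AMP and calcium reach them through CREB at cyclic AMP response elements. Fos and Jun proteins pair to form AP-1, Egr proteins and Nr4a1 are further transcription factors, and Dusp1 is a phosphatase that switches MAP kinases off. The same genes are known to respond to handling of tissue, such as dissection and warming, and the labels do not describe how the specimens were taken.

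The promoter of Junb is shown because Junb was the 1 member that passed the test in both comparisons with the 18-month tumours. That of Dusp1 is shown because Dusp1 varied together with Junb between tumours of a group, and it was chosen after its values were seen. Egr1 varied together with Junb as well, with Pearson's r of 0.76 against 0.56 for Dusp1. The Egr1 sequence is not shown, and its motifs are given below. Each line gives the 250 bases before the gene start from RefSeq (GRCr8), read 5′ to 3′ along the gene. The Junb window is chr19:40080876-40081125 (+) and the Dusp1 window chr10:17184603-17184852 (+). Capitals mark cyclic AMP response elements (TGACGTCA), their core (TGACG) and the TATA box (TATAAA).
Junb: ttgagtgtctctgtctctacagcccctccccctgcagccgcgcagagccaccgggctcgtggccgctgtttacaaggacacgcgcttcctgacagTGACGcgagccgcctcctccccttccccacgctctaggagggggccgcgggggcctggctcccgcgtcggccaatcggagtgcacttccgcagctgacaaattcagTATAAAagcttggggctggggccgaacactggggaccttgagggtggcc
Dusp1: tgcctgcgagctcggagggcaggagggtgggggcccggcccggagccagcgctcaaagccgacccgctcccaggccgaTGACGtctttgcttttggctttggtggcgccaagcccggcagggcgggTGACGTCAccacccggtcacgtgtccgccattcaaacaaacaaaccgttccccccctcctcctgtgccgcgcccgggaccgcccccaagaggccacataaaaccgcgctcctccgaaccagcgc

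Of the 8 measured members, 5 had a promoter in the RefSeq table: Junb, Egr1, Egr2, Nr4a1 and Dusp1. Motifs were searched on both strands, and a core inside a full element was also counted as a core. The CArG box occurred in 1.5% of all 33469 promoters of this length, the full cyclic AMP response element TGACGTCA in 1.59%, its core TGACG in 18.2%, the AP-1 site TGANTCA in 6.34%, the Egr site GCGNGGGCG in 4.29% and TATAAA in 12.9%. The Junb window held a TGACG at -155 to -151 and a TATAAA at -49 to -44, counted from the gene start. The Dusp1 window held the full TGACGTCA at -124 to -117 and a further TGACG at -172 to -168. Egr1 had 2 CArG boxes, at -105 to -96 and at -83 to -74, and Egr2 had 1, at -83 to -74. Egr1 also had 2 TGACG cores, Egr2 had 1 and Nr4a1 had 4, all on the reverse strand, and Nr4a1 had 1 Egr site. All 5 windows thus held the core. None of the 5 windows held the letters TGANTCA. A match of letters is a description and shows no binding, and a missing match says only that the letters are not in this window.

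The values are log2 expression summarised per probe set by the authors, with array medians between 7.55 and 7.65, and a level of one gene is not set against that of another. The C cell marker Calca, which encodes calcitonin, ranged from 13.76 to 14.02 in homozygous tumours at 9 months, from 14.01 to 14.12 in heterozygous tumours at 18 months and from 13.75 to 13.92 in heterozygous tumours at 9 months. Tg, the thyroglobulin of follicular cells, ranged from 14.18 to 14.34 in homozygous tumours, from 11.08 to 14.34 in heterozygous tumours at 18 months and from 14.30 to 14.37 in heterozygous tumours at 9 months, and the platform thus read follicular RNA in every group. The first principal component over all tested genes took 63.9% of the variance. Along it, 18-month replicates 1, 2, 3 and 6 lay at 69.9, 52.5, 50.3 and 35.8, while 18-month replicates 4 and 5 lay at -11.7 and 4.21. Homozygous replicate 3 lay at 24.0, and the other 9-month tumours between -28.6 and -9.68. Because 18-month replicates 4 and 5 stood nearer to the 9-month tumours, the members' results with the 18-month group and the list counts are also given without them. These 2 were picked from the values of this same series. Leaving them out tends to widen differences with the 18-month group and to narrow its spread. The smaller p-values of those fits are therefore a description and add no support. Homozygous replicate 3 was left out only in turn with each other array. In whole tumours, fewer cells of a type and less RNA per cell cannot be told apart.

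Between the ages of heterozygous tumours, 2 of 8 members, Junb and Fos, were higher at 18 months and none was lower. A gene was called where the adjusted p of limma's moderated test (Benjamini-Hochberg over 11370 genes) was under 0.05. Of all genes tested, 21.6% were called higher and 22.4% lower in this comparison, and 44.1% were called in either direction, so that a share of 2 in 8 is near the background. The differences of 7 of 8 members were above 0, against 49.3% of all genes, and their median was 0.33 against -0.0045 over all genes. An unadjusted p under 0.05 was found for 4 of 8 members and for 51.4% of all genes. Without 18-month replicates 4 and 5, 4 of 8 members were called higher (Fos, Junb, Egr1 and Atf3), and 27.0% of all genes were.

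**Figure D1:**
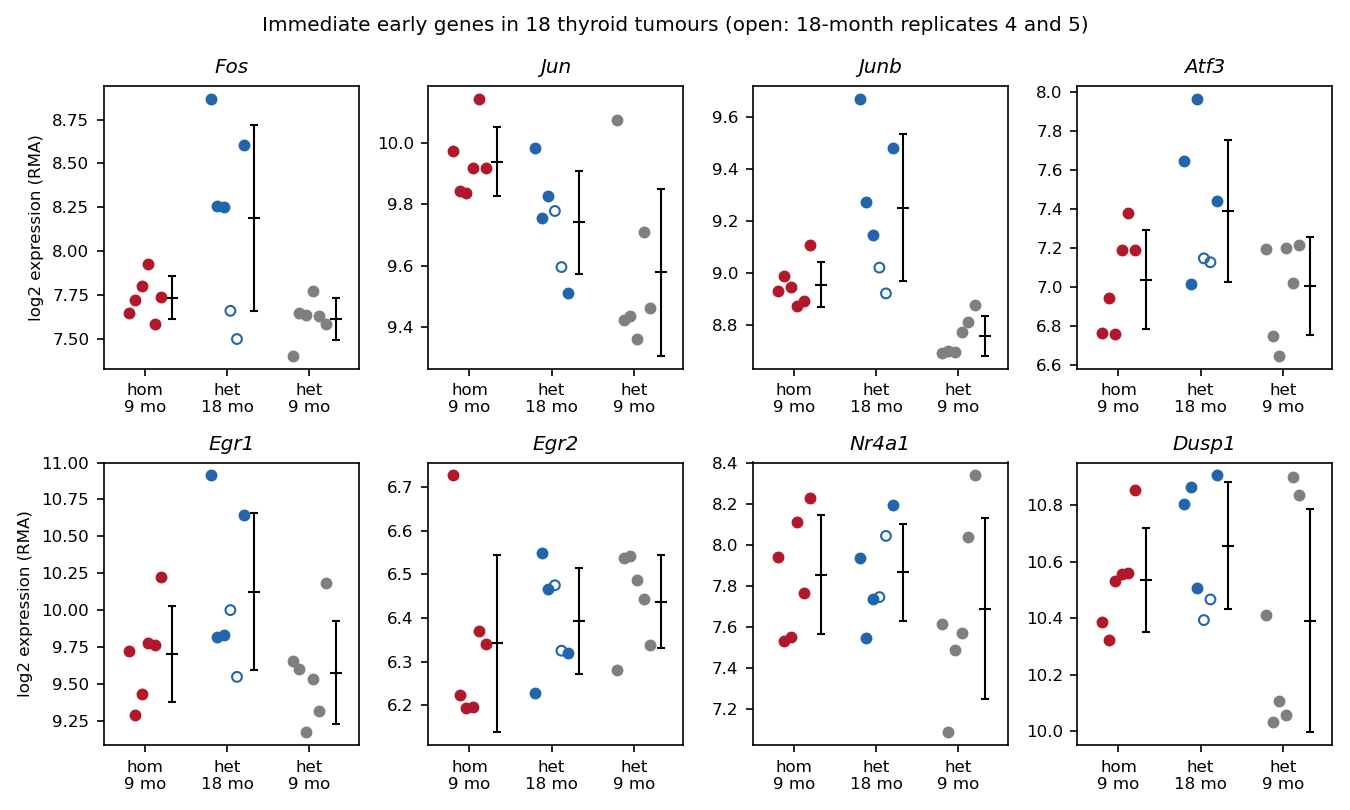
Log2 expression (RMA) of the 8 measured immediate early genes in 18 tumours, with 6 homozygous tumours at 9 months (hom 9 mo), 6 heterozygous tumours at 18 months (het 18 mo) and 6 heterozygous tumours at 9 months (het 9 mo). Points are tumours, open points are 18-month replicates 4 and 5, and bars give mean and SD. All 6 Junb values at 18 months lie above all 6 of heterozygous tumours at 9 months, and Fos at 18 months spreads from 7.50 to 8.87.

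Junb, an AP-1 subunit that pairs with Fos proteins and is known to restrain some Jun targets, ranged from 8.92 to 9.67 with a median of 9.21 at 18 months, and from 8.69 to 8.88 with a median of 8.73 in heterozygous tumours at 9 months. All 6 tumours at 18 months lay above all 6 at 9 months, and 9.07% of all genes were separated upwards in this way. Junb averaged 9.25 ± 0.28 at 18 months and 8.76 ± 0.08 in heterozygous tumours at 9 months (SD, n = 6 each). The difference was 0.49 (SE 0.10, 95% interval 0.28 to 0.70), a fold of 1.41, with a limma adjusted p of 0.00128. The exact two-sided permutation test over all assignments of 6 and 6 tumours gave 0.00216, the smallest p it allows. Without 18-month replicates 4 and 5, the difference was 0.63 (limma adjusted p = 1.74e-05).

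Fos, the partner of Jun proteins in AP-1, ranged from 7.50 to 8.87 with a median of 8.25 at 18 months, and from 7.40 to 7.77 with a median of 7.63 in heterozygous tumours at 9 months. The values of 18-month replicates 1, 2, 3 and 6, at 8.87, 8.26, 8.25 and 8.604, lay above all 9-month heterozygous tumours, whereas replicates 4 and 5 at 7.66 and 7.50 lay within their range. The SD was 0.53 at 18 months and 0.12 at 9 months. The difference was 0.58 (SE 0.18, 95% interval 0.21 to 0.95), a fold of 1.49, with a limma adjusted p of 0.0137. The exact permutation test gave p = 0.0390. Without 18-month replicates 4 and 5, the difference was 0.88 (SE 0.11), with a limma adjusted p of 1.0e-05.

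Egr1, a zinc finger factor with GC-rich target sites, ranged from 9.55 to 10.91 with a median of 9.92 at 18 months, and from 9.17 to 10.18 with a median of 9.57 in heterozygous tumours at 9 months. The groups overlapped: 2 tumours at 18 months, replicates 1 and 6, lay above all of the 9-month heterozygous ones, and 9-month replicate 6 had 10.18. The difference of 0.55 (95% interval 0.08 to 1.02) did not pass, with a limma adjusted p of 0.0553 and an exact permutation p of 0.0628. It passed without 18-month replicate 5 (0.67, limma adjusted p = 0.0218) and without 9-month heterozygous replicate 6 (0.67, limma adjusted p = 0.0238). Without homozygous replicate 6 it was 0.55 and passed as well (limma adjusted p = 0.04955). In the other 15 of the 18 fits that left out 1 array it did not pass, with limma adjusted p-values of up to 0.141. It also passed without 18-month replicates 4 and 5 together (0.73, limma adjusted p = 0.0172).

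Atf3, a stress-induced relative of CREB that can pair with Jun, ranged from 7.01 to 7.96 with a median of 7.29 at 18 months, and from 6.65 to 7.22 with a median of 7.11 in heterozygous tumours at 9 months. At 18 months, replicates 1, 3 and 6 lay above all heterozygous tumours at 9 months. The difference was 0.38 (95% interval 0.04 to 0.72), with a limma adjusted p of 0.0629 and an exact permutation p of 0.0693. It passed on leaving out 18-month replicate 2 (0.46, limma adjusted p = 0.0364), 4 (0.43, limma adjusted p = 0.0425) or 5 (0.44, limma adjusted p = 0.0439), and 4 and 5 together (0.51, limma adjusted p = 0.0224). In the other 15 of the 18 fits that left out 1 array it did not pass, with limma adjusted p-values of up to 0.157.

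Jun, which forms AP-1 with Fos proteins, ranged from 9.51 to 9.98 with a median of 9.77 at 18 months, and from 9.36 to 10.08 with a median of 9.45 in heterozygous tumours at 9 months. The highest of these 12 values, 10.08, belonged to 9-month replicate 1, and the other 9-month heterozygous values reached 9.71. The difference was 0.16 (95% interval -0.07 to 0.40, limma adjusted p = 0.240). Without 9-month heterozygous replicate 1, it was 0.26 and passed (limma adjusted p = 0.0230). In the other 17 of the 18 fits that left out 1 array it did not pass, with limma adjusted p-values of up to 0.4435.

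Dusp1 ranged from 10.39 to 10.91 with a median of 10.66 at 18 months, and from 10.03 to 10.90 with a median of 10.26 in heterozygous tumours at 9 months. The 9-month values fell into 4 between 10.03 and 10.41 and 2, replicates 5 and 6, at 10.90 and 10.84. The difference was 0.27 (95% interval -0.06 to 0.59, limma adjusted p = 0.177). Nr4a1, an orphan nuclear receptor, ranged from 7.54 to 8.20 at 18 months and from 7.09 to 8.34 in heterozygous tumours at 9 months, the widest spread of this gene in any group, with a difference of 0.18 (95% interval -0.21 to 0.56, limma adjusted p = 0.457). Egr2, known for hindbrain patterning and myelinating Schwann cells, ranged from 6.23 to 6.55 at 18 months and from 6.28 to 6.54 in heterozygous tumours at 9 months. Its difference of -0.04 (95% interval -0.23 to 0.14) was the 1 member difference below 0, and its values lay close to the filter of 6.32.

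Between genotypes at 9 months, none of the 8 members was called, as was none of the 11370 genes tested (0%). An unadjusted p under 0.05 was found for 995 genes (8.75%), and among the members for Jun alone. The differences of 7 of 8 members were above 0, with a median of 0.13, against 50.7% of all genes and a median of 0.0022. Refitting the 2 groups at 9 months by themselves, which no longer shares the spread of the 18-month tumours, called 24 genes and no member.

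Jun ranged from 9.84 to 10.14 with a median of 9.92 in homozygous tumours, and from 9.36 to 10.08 with a median of 9.45 in heterozygous tumours at 9 months. All 6 homozygous tumours lay above 5 of the 6 heterozygous ones, and replicate 1 at 10.08 lay among them. Jun averaged 9.94 ± 0.11 in homozygous and 9.58 ± 0.27 in heterozygous tumours (SD, n = 6 each). The difference was 0.36 (SE 0.11, 95% interval 0.13 to 0.59), a fold of 1.28, with a limma adjusted p of 0.398. The exact permutation test of Jun alone gave p = 0.0238, not adjusted for the 8 members. In the fit of the 2 groups by themselves the limma adjusted p was 0.233.

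Junb ranged from 8.87 to 9.11 with a median of 8.94 in homozygous tumours, and from 8.69 to 8.88 with a median of 8.73 in heterozygous tumours at 9 months. In all, 5 of 6 homozygous tumours lay above every heterozygous one, and replicate 4 at 8.87 lay just below the highest of them at 8.88. Across all genes, 0.651% were fully separated upwards and 0.915% downwards, and no member was. The difference was 0.20 (95% interval -0.01 to 0.41), a fold of 1.15, with a limma adjusted p of 0.581 and an exact permutation p of 0.00433 for this gene alone. The shared spread used by limma includes the 18-month SD of 0.28, against 0.08 in each 9-month group. In the fit of the 2 groups by themselves the limma adjusted p was 0.206.

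The other members differed less. Fos ranged from 7.58 to 7.93 in homozygous tumours and from 7.40 to 7.77 in heterozygous tumours at 9 months, a difference of 0.12 (95% interval -0.25 to 0.49, limma adjusted p = 0.844). Egr1 ranged from 9.29 to 10.23 and Atf3 from 6.76 to 7.38 in homozygous tumours, in ranges that overlapped those of heterozygous tumours. Their differences were 0.13 for Egr1 (limma adjusted p = 0.881) and 0.03 for Atf3 (limma adjusted p = 0.963). The difference was 0.17 for Nr4a1 (limma adjusted p = 0.798), 0.14 for Dusp1 (limma adjusted p = 0.794) and -0.10 for Egr2 (limma adjusted p = 0.748). All 6 homozygous Dusp1 values, from 10.32 to 10.85, lay above the heterozygous median of 10.26. The sign for Atf3 turned on leaving out 1 tumour, with differences from -0.04 to 0.09.

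**Figure D2:**
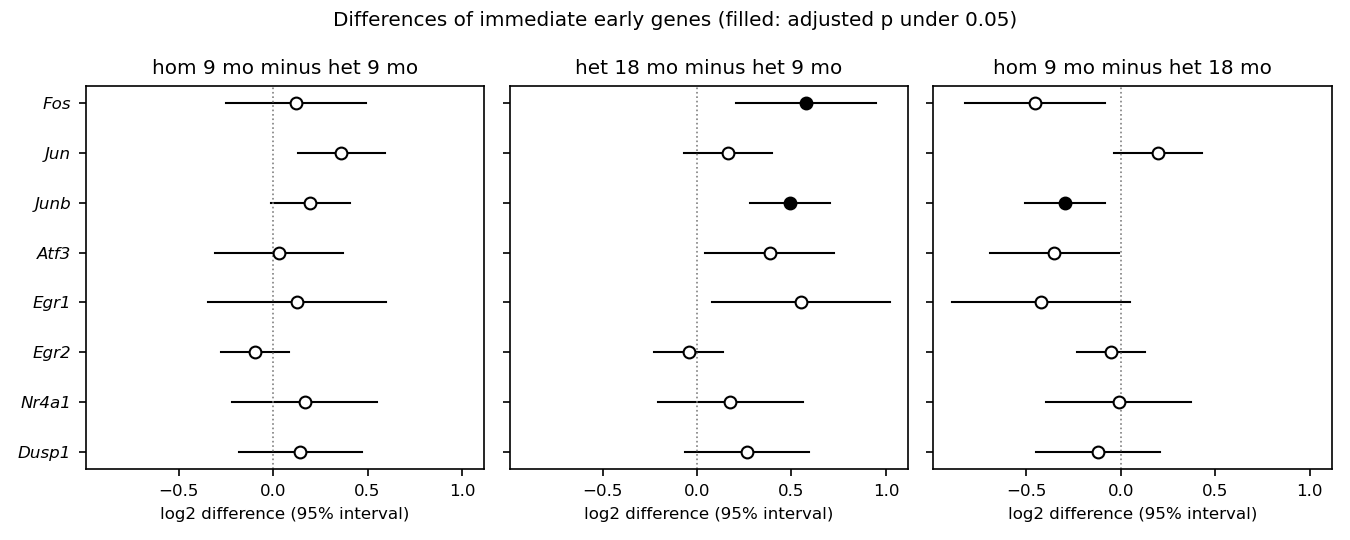
Log2 differences of the 8 immediate early genes in 3 comparisons, with 95% intervals from limma. Filled points passed an adjusted p under 0.05. Junb and Fos pass between ages, none passes between genotypes at 9 months, and Junb passes between homozygous tumours at 9 months and heterozygous tumours at 18 months.

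Between homozygous tumours at 9 months and heterozygous tumours at 18 months, 1 of 8 members, Junb, was called lower in homozygous tumours and none higher. Of all genes tested, 13.6% were called lower, 16.2% higher and 29.8% in either direction. No member was fully separated between these groups, and 1.26% of all genes were separated upwards and 0.994% downwards. An unadjusted p under 0.05 was found for 3 of 8 members and for 41.8% of all genes. Junb had means of 8.96 ± 0.08 in homozygous tumours and 9.25 ± 0.28 in heterozygous tumours at 18 months (SD, n = 6 each). The difference was -0.30 (SE 0.10, 95% interval -0.51 to -0.09), a fold of 0.815, with a limma adjusted p of 0.0344 and an exact permutation p of 0.0260. The call did not hold on leaving out homozygous replicate 1, 2, 4 or 5 or 18-month replicate 1, 2 or 6, with limma adjusted p-values of 0.0517 to 0.0776, nor with only the 2 groups in the fit (limma adjusted p = 0.0962). The 18-month tumours are the same arrays that enter the comparison between ages, so both comparisons share their spread.

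Fos differed by -0.45 (95% interval -0.82 to -0.08, limma adjusted p = 0.0588), Egr1 by -0.42 (limma adjusted p = 0.159) and Atf3 by -0.35 (limma adjusted p = 0.107). Jun was the 1 member with a difference above 0, at 0.20 (95% interval -0.03 to 0.43, limma adjusted p = 0.183). The differences were -0.12 for Dusp1 (limma adjusted p = 0.586), -0.05 for Egr2 (limma adjusted p = 0.682) and -0.01 for Nr4a1 (95% interval -0.39 to 0.37, limma adjusted p = 0.973). Leaving out 18-month replicates 4 and 5 gave 4 members called lower, and 23.2% of all genes. The differences were then -0.76 for Fos, -0.44 for Junb, -0.60 for Egr1 and -0.48 for Atf3, with limma adjusted p-values of 6.63e-05, 0.000645, 0.0484 and 0.0346 in the same order.

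By mean level, 6 of 8 members, Junb, Fos, Egr1, Atf3, Nr4a1 and Dusp1, ran in one order, highest in heterozygous tumours at 18 months, then homozygous tumours at 9 months, then heterozygous tumours at 9 months. The share of all genes in this order was not counted. Between the first neighbours in that order the limma test passed for Junb, whose group ranges overlapped and whose call depended on the fit as given above, and for none of the other 5 with all 18 arrays. Between the last neighbours, homozygous and heterozygous tumours at 9 months, it passed for none of the 6. Nr4a1 differed by -0.01 between the first neighbours, and this sign turned in 6 of the 18 fits that left out 1 array. Atf3 differed by 0.03 between the last neighbours, and this sign turned in 3 of those 18 fits. Jun had another order, highest in homozygous tumours at 9 months with 9.94, then heterozygous tumours at 18 months with 9.74 and heterozygous tumours at 9 months with 9.58, and no pair of its groups passed. Egr2 ran lowest to highest with 6.34 in homozygous tumours at 9 months, 6.39 in heterozygous tumours at 18 months and 6.44 in heterozygous tumours at 9 months, and no pair of its groups passed either.

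Markers of other cells moved with age in the same tumours. All 11 tested endothelial markers were lower at 18 months, and their summed level on the log2 scale ranged from 11.74 to 13.71 at 18 months against 13.67 to 13.94 in heterozygous tumours at 9 months. Of 8 tested follicular markers 7 were lower, with summed levels of 11.68 to 15.20 at 18 months against 15.32 to 15.40 in heterozygous tumours at 9 months. All 6 adipocyte markers were lower, with summed levels of 10.04 to 11.33 at 18 months against 10.94 to 12.45 in heterozygous tumours at 9 months. Of 10 C cell and neuroendocrine markers 8 were higher, with summed levels of 15.80 to 16.40 at 18 months against 15.31 to 15.58 in heterozygous tumours at 9 months. Of 8 macrophage markers 3 were higher and 1 was lower, with summed levels of 11.47 to 12.49 at 18 months against 11.44 to 11.81 in heterozygous tumours at 9 months. Fibroblast and matrix markers had 1 of 9 higher and 4 lower, smooth muscle and pericyte markers 1 of 10 higher and 1 lower, parathyroid markers 1 of 3 higher and 1 lower, and mast cell markers 2 of 3 lower. Skeletal muscle had 1 of 10 and Schwann and nerve markers 1 of 3 lower, and no tested T and B cell or neutrophil marker was called. All 10 skeletal muscle differences were below 0, with a median of -1.74. Summed muscle levels were 10.31 to 14.39 at 18 months against 13.03 to 15.17 in heterozygous tumours at 9 months. Parathyroid markers averaged 8.53 to 12.87 per tumour at 18 months and 9.87 to 12.81 in heterozygous tumours at 9 months. Of all tumours, 18-month replicate 6 stood apart in neutrophil and macrophage markers. Its summed neutrophil level, over 5 genes including S100a8 and S100a9 with means under the filter, was 11.61. The level was at most 9.63 in heterozygous tumours at 9 months and 9.55 in the other 18-month tumours. Replicate 6 also had the highest summed macrophage level, 12.49, and the next to highest Fos, Junb and Egr1 of its group, at 8.604, 9.48 and 10.64. Without it, the differences between ages were 0.49 for Fos and 0.45 for Junb (limma adjusted p = 0.0351 and 0.0035). Log2 values do not reach 0, and Pecam1 of endothelial cells averaged 8.89 ± 0.69 at 18 months and 9.98 ± 0.08 in heterozygous tumours at 9 months (SD, n = 6 each). Junb was above all 9-month heterozygous tumours also in 18-month replicates 4 and 5, at 9.02 and 8.92. Of the 18-month group, these 2 tumours had the summed endothelial levels nearest to those of 9-month tumours, 13.71 and 13.43. Their summed C cell and neuroendocrine levels, 15.80 and 15.98, lay above the range of 9-month heterozygous tumours. Their summed follicular levels, 15.20 and 15.09, lay below it. Fos in these 2 tumours was within the 9-month range. Between genotypes at 9 months no marker was called. All 11 endothelial, 8 follicular and 6 adipocyte differences were below 0 in homozygous tumours, with medians of -0.29, -0.32 and -0.25, and 2 follicular markers were fully separated. Of 10 C cell and neuroendocrine differences, 9 were above 0 and 1 below, with a median of 0.45. The part of cell composition in the members' differences was not tested in any comparison.

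Members also varied between tumours of the same group. The deviations of each gene from its group means were correlated over 18 tumours for all 28 pairs of members, with permutation within groups (100000 resamples, two-sided) and Benjamini-Hochberg adjustment over the 28 pairs. Of the 28 coefficients 20 were above 0, with a median of 0.29, and 4 pairs passed an adjusted p under 0.05. All 4 were positive, and 3 of them involved Junb. Egr2 was negative with each of the other 7 members. By Spearman's rho, none of the 28 pairs passed, with a smallest adjusted p of 0.154.

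**Figure D3:**
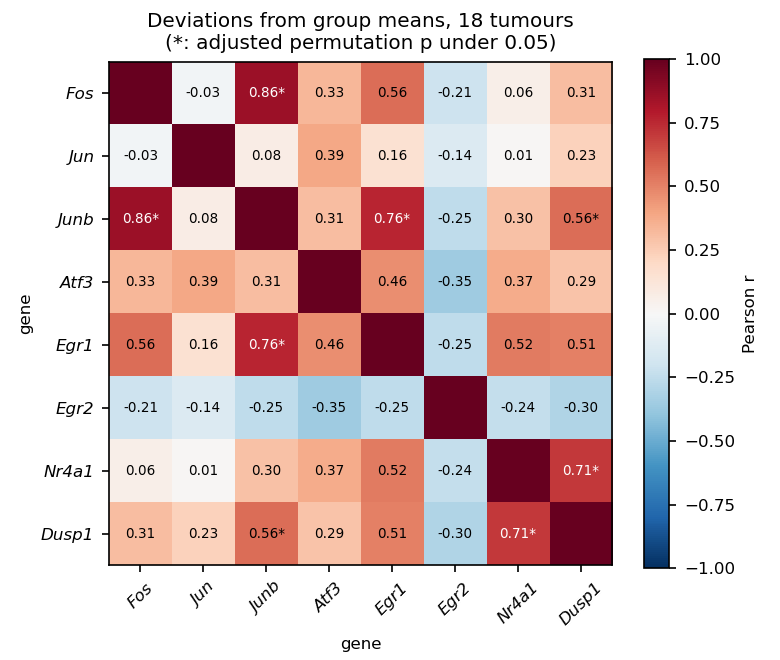
Pearson r between the deviations of 8 immediate early genes from their group means over 18 tumours, with a colour scale of -1 to 1. Asterisks mark an adjusted permutation p under 0.05. The 4 marked pairs are Fos with Junb at 0.86, Junb with Egr1 at 0.76, Nr4a1 with Dusp1 at 0.71 and Junb with Dusp1 at 0.56.

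Fos and Junb had Pearson's r of 0.86 (permutation p = 0.00516, adjusted p = 0.0384) and Spearman's rho of 0.50 (permutation p = 0.10). Within groups, r was -0.10 in homozygous tumours, 0.97 in heterozygous tumours at 18 months and 0.21 in heterozygous tumours at 9 months. Without the 2 tumours farthest from the median of Fos, r was 0.66 and no longer passed (permutation p = 0.0931). The relation was seen in the 18-month group, where replicate 1 had the highest Fos and the highest Junb, 8.87 and 9.67, and replicate 5 the lowest of both, 7.50 and 8.92.

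Junb and Egr1 had r of 0.76 (permutation p = 0.00200, adjusted p = 0.0343) and rho of 0.45 (permutation p = 0.113). Within groups, r was 0.43 in homozygous tumours, 0.92 in heterozygous tumours at 18 months and 0.57 in heterozygous tumours at 9 months. Without the 2 farthest tumours it was 0.56 (permutation p = 0.0396, not adjusted), and after adjustment it did not pass. Junb and Dusp1 had r of 0.56 (permutation p = 0.00245, adjusted p = 0.0343) and rho of 0.58 (permutation p = 0.0110), with r of 0.54 in homozygous tumours, 0.82 in heterozygous tumours at 18 months and 0.76 in heterozygous tumours at 9 months. Without the 2 farthest tumours it was 0.65 (permutation p = 0.00303, not adjusted), and this pair did not pass after adjustment either.

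Nr4a1 and Dusp1 had r of 0.71 (permutation p = 0.00548, adjusted p = 0.0384) and rho of 0.68 (permutation p = 0.00583). Here r was 0.67 in homozygous tumours, 0.16 in heterozygous tumours at 18 months and 0.90 in heterozygous tumours at 9 months. Heterozygous tumours at 9 months gave Nr4a1 values of 8.04 and 8.34 in replicates 5 and 6, the same tumours that were high in Dusp1, while the other 4 lay between 7.09 and 7.61. Without the 2 farthest tumours r was 0.56 (permutation p = 0.0306, not adjusted), and after adjustment it did not pass. Leaving out 1 tumour at a time left between 0 and 4 pairs past the threshold, so no pair call stood in every such fit. Without 18-month replicate 6, r was 0.84 for Fos and Junb, 0.72 for Junb and Egr1 and 0.52 for Junb and Dusp1, each with an adjusted permutation p of 0.091.

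**Figure D4:**
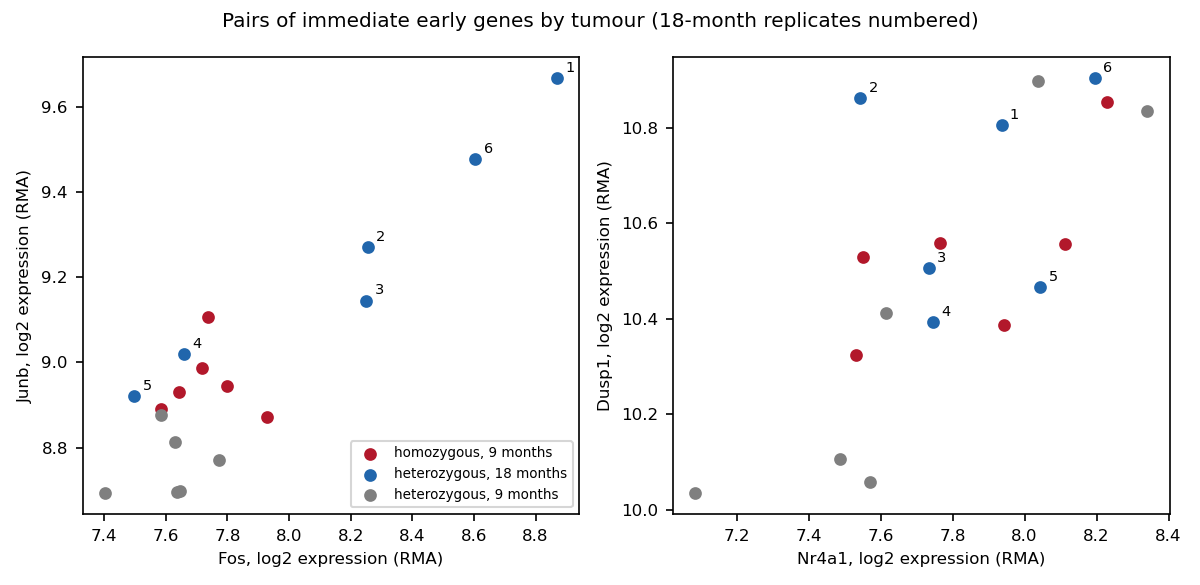
Log2 expression (RMA) of Junb against Fos (left) and of Dusp1 against Nr4a1 (right) in 18 tumours, coloured by group, with the 18-month replicates numbered. Fos and Junb line up in the 18-month tumours, with r of 0.97, and Nr4a1 and Dusp1 in the 9-month heterozygous tumours, with r of 0.90.

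Genes outside the members were ranked by the Pearson r of their deviations from group means over the 18 tumours, as a description of likeness. The 5 nearest to the mean of the 8 members were Dusp5 (0.85), an Erk phosphatase, Tmem17 (0.79), Mtm1 (0.77), Il1rap (0.77) and Bbof1 (0.76). The 3 most opposed were Abcg8 (-0.83), Eef1a1 (-0.82) and Spata3 (-0.81). Nearest to Fos alone were Fcrl2 (0.92), RT1-M2 (0.88) and Dnm3 (0.88), and nearest to Jun alone were Mgat2 (0.82), Cdkn1a (0.81) and Cyb5a (0.80). These are the ends of a ranking over the tested genes, and all coefficients share the same 18 arrays. Dusp5 averaged 8.45 in homozygous tumours, 8.81 in heterozygous tumours at 18 months and 8.36 in heterozygous tumours at 9 months.

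The 6 lists of related genes were counted beside the members, and the called genes with the smallest p are named, at most 4 for each list. Between ages, these counts stand beside 21.6% of all genes called higher and 22.4% called lower, so that the named changes describe single genes and not a list. The counts between ages without 18-month replicates 4 and 5 stand beside 27.0% of all genes higher and 26.9% lower. Between genotypes at 9 months, none of the tested genes of any of the 6 lists was called. Between ages, other immediate early transcription factors had 3 of 18 higher and 4 lower at 18 months, with a median difference of -0.08, shares near those of all genes. The small Maf factors Maff and Mafk rose by 0.32 (limma adjusted p = 0.00103) and 0.24 (limma adjusted p = 0.00790). Nr4a2, a relative of Nr4a1, fell by 0.88 to 9.19 ± 0.51 at 18 months against 10.07 ± 0.30 in heterozygous tumours at 9 months (SD, n = 6 each, limma adjusted p = 0.00491). Myc, a driver of growth and proliferation, fell by 1.03 to 7.23 ± 0.70 at 18 months against 8.26 ± 0.51 in heterozygous tumours at 9 months (limma adjusted p = 0.0112). Leaving out 18-month replicate 2 left 2 lower genes in this list. The list had 3 higher and 6 lower without 18-month replicates 4 and 5.

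Other immediate early effectors and inhibitors had 3 of 24 higher and 7 lower at 18 months, with a median difference of -0.09, against 21.6% and 22.4% of all genes. Gadd45a, a stress and DNA damage response gene, fell by 1.23 (SE 0.28, limma adjusted p = 0.00237) and Ccn2, a secreted matricellular protein, by 0.81 (SE 0.17, limma adjusted p = 0.00160). Btg1, an antiproliferative relative of Btg2, fell by 0.46 (SE 0.09, limma adjusted p = 0.00106). Socs3, a feedback inhibitor of cytokine receptors, rose by 0.45 (SE 0.10, limma adjusted p = 0.00249). The endothelial and follicular marker levels given above moved in the same tumours, and their part in these falls was not tested. Without 18-month replicate 5, 5 genes of this list were higher, and without replicates 4 and 5 together 5 were higher and 7 lower. In the fit without both, 27.0% of all genes were higher and 26.9% lower.

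**Figure D5:**
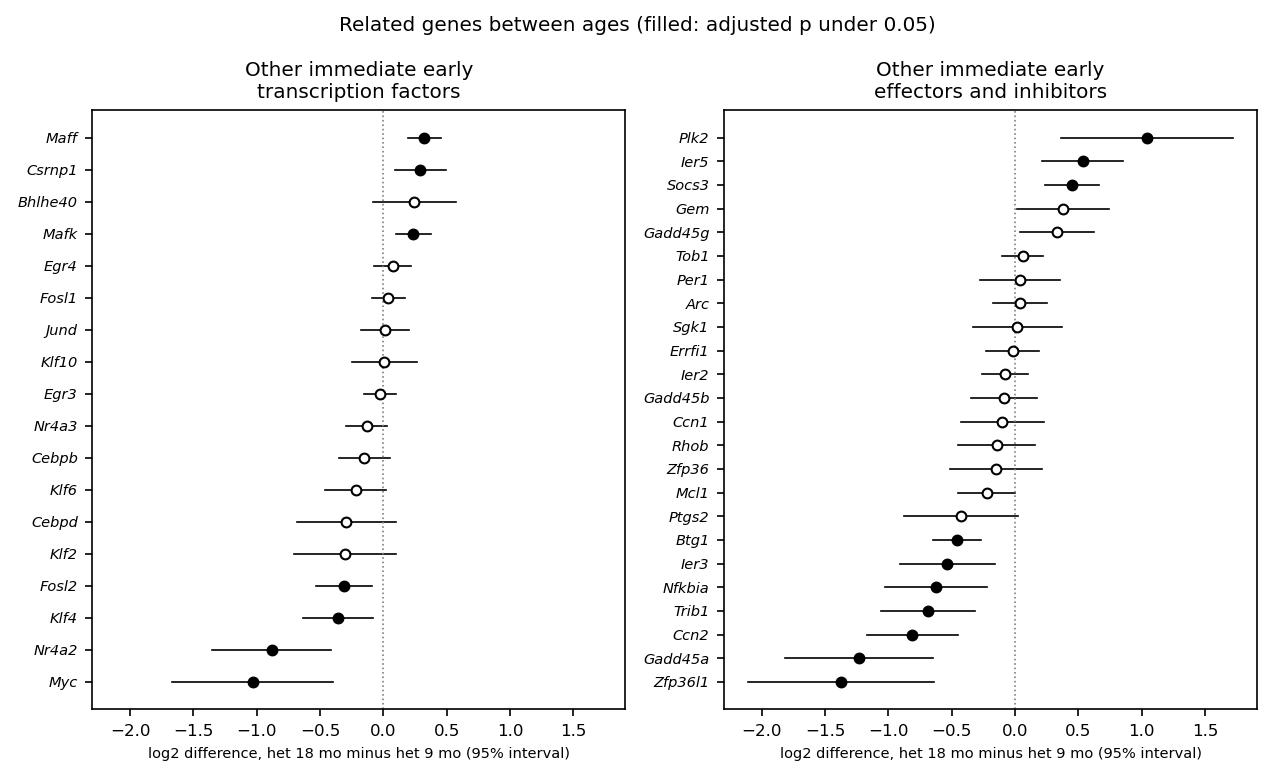
Log2 differences between heterozygous tumours at 18 and at 9 months, with 95% intervals from limma, for 18 other immediate early transcription factors (left) and 24 other immediate early effectors and inhibitors (right). Filled points passed an adjusted p under 0.05: 3 higher and 4 lower on the left, 3 higher and 7 lower on the right.

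Upstream of the members, the MAP kinase cascade had 6 of 17 genes higher and 2 lower at 18 months, against 21.6% and 22.4% of all genes. Without 18-month replicates 4 and 5 it had 7 higher and 2 lower, against 27.0% and 26.9% of all genes. Rps6ka2, a ribosomal S6 kinase activated by Erk, was higher by 1.39 (SE 0.26, limma adjusted p = 0.000837), Rps6ka5, a nuclear kinase that acts on CREB and on histones, by 0.82 (SE 0.20, limma adjusted p = 0.00352) and Braf by 0.52 (SE 0.10, limma adjusted p = 0.00123). Nras fell by 0.36 (SE 0.08, limma adjusted p = 0.00162). Among ternary complex, serum response and CREB factors, 2 of 11 were higher and none was lower. Both were coactivators of CREB: Crtc1 rose by 0.53 (SE 0.07, limma adjusted p = 0.000204) and Crtc2 by 0.27 (SE 0.05, limma adjusted p = 0.00108). Without 18-month replicates 4 and 5, this list had 2 genes higher and 3 lower.

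Of 7 tested partners of AP-1, Jdp2, a repressor of AP-1 targets, was higher by 0.34 (limma adjusted p = 0.0210), and Atf7 fell by 0.44 (limma adjusted p = 0.0179) and Fosl2 by 0.31 (limma adjusted p = 0.0232). This list also holds Jund, Fosl1 and Fosl2, which are of the Jun and Fos families themselves. The same genes stand among the other immediate early transcription factors, so a call of Fosl2 counts in both lists. The call of Jdp2 was lost without 9-month heterozygous replicate 5 or 18-month replicate 6 (limma adjusted p = 0.0543 and 0.0529), and that of Fosl2 without 9-month heterozygous replicate 2 or 18-month replicate 2 (limma adjusted p = 0.0583 and 0.0601). Heat shock genes, which answer protein damage, had 3 of 11 higher and 1 lower. Bag3 rose by 0.52 (limma adjusted p = 0.00280), Hsph1 by 0.50 (limma adjusted p = 0.00797) and Hsp90aa1 by 0.41 (limma adjusted p = 0.0241), and the small heat shock protein Hspb1 fell by 1.38 (limma adjusted p = 0.00222). Hsp90aa1 did not pass without 9-month heterozygous replicate 6 or 18-month replicate 1 or 3, with limma adjusted p-values of 0.0597, 0.0630 and 0.0566. Partners of AP-1 had 2 higher and 2 lower, and heat shock genes 3 higher and 2 lower, without 18-month replicates 4 and 5. Of all genes, 27.0% were then higher and 26.9% lower. The summed heat shock level on the log2 scale ranged from 14.71 to 14.88 at 18 months and from 14.57 to 14.79 in heterozygous tumours at 9 months, and its part in the members' differences was not tested.

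In homozygous tumours at 9 months against heterozygous tumours at 18 months, other immediate early transcription factors had 6 of 18 genes higher and none lower, against 16.2% of all genes higher and 13.6% lower. Klf6, Klf4 and Klf2, Krüppel-like factors, were higher by 0.55, 0.48 and 0.65 (limma adjusted p = 0.00661, 0.0151 and 0.0193), and Myc by 0.96 (limma adjusted p = 0.0255). Effectors and inhibitors had 7 of 24 higher and 3 lower, led by Btg1 at 0.53 (limma adjusted p = 0.00430), Trib1 at 0.80 (limma adjusted p = 0.00806), Ccn2 at 0.74 (limma adjusted p = 0.00877) and Gadd45a at 1.12 (limma adjusted p = 0.0111). With the 2 compared groups fitted by themselves, 1 of 18 transcription factors and 3 of 24 effectors were higher and none was lower. Calls over all 11370 genes, in either direction, then numbered 708, against 3392 with all 3 groups in the fit. Leaving out 1 tumour gave 3 to 6 transcription factors higher, and 6 to 8 effectors higher and 0 to 4 lower. When 18-month replicates 4 and 5 were left out, transcription factors had 6 higher and none lower, and effectors 8 higher and 4 lower. Of all genes, 24.2% were then higher and 23.2% lower. Myc lost its call without homozygous replicate 1 or 6 or 18-month replicate 1, 2 or 3, with limma adjusted p-values of 0.0532 to 0.0661. These comparisons share the 18-month tumours with those between ages.

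In the same comparison, the MAP kinase cascade had 2 of 17 genes higher and 4 lower, with Nras at 0.27, Map2k6 at 0.51, Rps6ka4 at -0.15 and Rps6ka2 at -0.74 (limma adjusted p = 0.0176, 0.0200, 0.0386 and 0.0396 in that order). Ternary complex, serum response and CREB factors had 2 of 11 higher and 1 lower, with Elk4 at 0.28, the CREB coactivator Crebbp at 0.26 and Crtc1 at -0.31 (limma adjusted p = 0.0285, 0.0137 and 0.00806). Partners of AP-1 had 2 of 7 higher and none lower, Atf7 at 0.52 and Fosl2 at 0.29 (limma adjusted p = 0.0146 and 0.0425). Heat shock genes had 1 of 11 higher and 4 lower, with Hspb1 at 1.10, Hsph1 at -0.53, Hsp90aa1 at -0.49 and Chordc1 at -0.26 (limma adjusted p = 0.0156, 0.0124, 0.0173 and 0.0392). Leaving out 1 tumour moved these counts widely, the lower MAP kinase genes between 0 and 6 and the lower heat shock genes between 2 and 5, and Rps6ka4, Rps6ka2, Fosl2, Chordc1, Elk4, Myc and Map2k6 each lost their call in at least 1 such fit, with limma adjusted p-values of up to 0.105 for Fosl2 without 18-month replicate 2. With only the compared groups in the fit, none of these 4 lists had a gene called except Crtc1, which stayed lower. Every other gene named here thus lost its call. Calls over all 11370 genes, in either direction, fell from 3392 to 708 in that fit, so the loss was not confined to these lists. Without 18-month replicates 4 and 5, the MAP kinase cascade had 2 higher and 6 lower, and ternary complex, serum response and CREB factors 3 higher and 1 lower. Partners of AP-1 then had 2 and 2, and heat shock genes 1 higher and 5 lower, against 24.2% of all genes higher and 23.2% lower. Follicular markers were higher in homozygous tumours for 6 of 8 genes, with summed levels of 14.89 to 15.33 in homozygous tumours against 11.68 to 15.20 in heterozygous tumours at 18 months. Endothelial markers were higher for 7 of 11 genes, with 12.97 to 13.84 in homozygous tumours against 11.74 to 13.71 in heterozygous tumours at 18 months. C cell and neuroendocrine markers were lower in homozygous tumours for 6 of 10 genes, and none was higher. The part of these cells in the list counts was not tested.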

How the data were processed

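RNA of 18 thyroid tumours was measured on Affymetrix arrays, after RNeasy Mini purification with DNase and NuGEN amplification and biotin labelling, per the labels' protocols. The authors deposited log2 values. The submitters' processing notes name RMA and, as software, Affymetrix Expression Console 1.3.0.187, in no stated order. Precision is set by the number of arrays.

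Of 29214 probe sets 15310 had 1 gene symbol, 323 several and 13581 none. Gene IDs of 15279 were found in RefSeq (GRCr8) and 0 symbols changed. For the 527 genes with more than 1 probe set, the one with the highest mean was used. Genes with a mean under 6.32, the 30th percentile over probe sets, were not tested. One mean per group was fitted to all 18 arrays (limma 3.58.1, R 4.3.3, lmFit and eBayes, two-sided), and SEs, 95% intervals and adjusted p-values of genes are limma's. Exact permutation tests were two-sided over all assignments and not adjusted over genes. Pairs were computed in Python 3.11.15. The procedure was tested on simulated data.

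The members, the 6 lists (91 of 104 entries found) and 13 cell type lists (95 of 103) were chosen with earlier results of these data known. Named were all members, up to 4 called genes of a list by smallest p, and the genes nearest to and farthest from the member mean, Fos and Jun. Replicate numbers were not used as pairs in the main fit, and no 2 arrays were alike within noise, with a highest r of 0.990. Alternatives were the filter, a replicate block, the groups fitted, eBayes settings, array weights, centring, quantile normalization, the probe set rule, 18-month replicates 4 and 5 and leaving out each array.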

Additional observations from a re-analysis of the deposited data

Results flagged for a closer look

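Egr2 in homozygous replicate 1 had a log2 value of 6.73, and the nearest of the other 5 homozygous tumours had 6.37. This gap took 0.669 of the range of the group, above Dixon's 95% critical value for 6 samples. The test was made for 24 groups of 6, and chance gives about 1 in 20. Egr2 lay near the filter of 6.32, and its difference between genotypes at 9 months was between -0.17 and -0.07 on leaving out 1 tumour.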

How the results depend on the processing

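In the comparison between ages, Junb and Fos kept their direction and their call in all 28 refits, 10 other settings and 18 fits that left out 1 array. Their differences ranged from 0.41 to 0.63 for Junb and from 0.44 to 0.88 for Fos. The members higher numbered 4 without 18-month replicates 4 and 5, and 2 to 4 with 1 array left out. The genes called numbered 4563 to 6131 in other settings and 4290 to 5740 with 1 array left out, against 5009.

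The members called lower in homozygous tumours at 9 months against heterozygous tumours at 18 months numbered 1, but 2 with a replicate block, with array weights or with a further quantile normalization, 0 with only the compared groups in the fit and 4 without 18-month replicates 4 and 5, and 0 to 2 with 1 array left out. The genes called numbered 3392, but 708 with only the compared groups, 5392 without 18-month replicates 4 and 5, and 2116 to 4702 with 1 array left out. The sign of Nr4a1, -0.01, turned to 0.0905 with array weights and 0.0031 without 18-month replicates 4 and 5, and lay between -0.0857 and 0.0549 with 1 array left out.

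Between genotypes at 9 months, 0 genes were called, but 24 with only the compared groups, 118 with array weights, 7 without 18-month replicates 4 and 5, and 0 to 2 with 1 array left out, and no member in any of them. Atf3 lay between -0.0400 and 0.0869 with 1 array left out. Pairs past the threshold numbered 4, but 0 with Spearman's rho, 0 without the 2 farthest arrays, 0 in each group by itself, and 0 to 4 with 1 array left out. Fos and Junb had r of -0.10 in homozygous tumours by themselves. The causes were not tested.

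Replicate numbers were not used as pairs in the main fit, and whether same-numbered tumours shared a processing step was not tested. Same-numbered deviations correlated at -0.13 to 0.33 between ages, with r over 0.1 for 4 of 6. They correlated at -0.14 to 0.30 between genotypes and at -0.29 to 0.35 between homozygous tumours at 9 months and heterozygous tumours at 18 months. With the replicate block, Egr1 passed between ages (limma adjusted p = 0.00863). Of the comparisons' tumours, 3, 1 and 0 of 6 correlated best with their own number, in the same order. Egr2 and Atf3 lay below a filter at the 50th percentile, 7.64, and have no value there.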
